A study of Mus musculus with 8 samples.

Results

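The genes described here are the 5 that encode the meiotic telomere attachment machinery in the testis: *Terb1*, *Terb2*, *Majin*, *Sun1* and *Ccdc155*, the gene of KASH5. They were taken by name from a table of 54532 genes, and all 5 were present there. RNA was sequenced in whole testes of 8 mice, 1 library each: 4 control mice of genotype Spdyafl/fl (*Sync-Spdya fl/fl*) and 4 cKO mice of genotype Spdyafl/fl;Ddx4-CreERT2 (*Sync-Spdya cKO*). Mice of both groups carried *Spdya* with loxP sites around exon 2, had their spermatogenesis synchronized by an inhibitor of retinoic acid (RA) synthesis followed by RA itself, and received tamoxifen on RA7.5 and RA8.5 by the labels. Testes were collected on RA11.5, which the study describes as mid-late pachytene. The recombinase CreERT2 is driven by *Ddx4*, a germ cell gene, and acts once tamoxifen is given, so the somatic cells of the testis keep *Spdya* in both groups. *Spdya* encodes Speedy A (SpdyA), the partner that activates CDK2 at meiotic telomeres.

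In meiotic prophase the ends of the chromosomes are fixed to the inner face of the nuclear envelope, and forces from the cytoplasm move them so that homologous chromosomes can pair. TERB1 binds the shelterin protein TRF1 on telomeric DNA, TERB2 joins TERB1 to MAJIN, and MAJIN is anchored in the inner nuclear membrane. SUN1 spans the inner membrane and meets KASH5 of the outer membrane, which forms the LINC complex (linker of nucleoskeleton and cytoskeleton), and KASH5 recruits cytoplasmic dynein. TERB1, TERB2, MAJIN and KASH5 are known as germ cell proteins, whereas SUN1 is also used by somatic cells. The comparison asks at the level of RNA whether the genes of this machinery differed between the groups. It says nothing of where the proteins were.

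The coordinates below are on GRCm38, and the GENCODE M21 annotation gives all 5 genes the same start and end as the deposited table. *Terb1* (ENSMUSG00000052616) spans chr8:104446719-104509910 on the minus strand, with 20 exons in its principal transcript. *Terb2* (ENSMUSG00000027229) spans chr2:122186272-122206397 on the plus strand with 7 exons, and *Majin* (ENSMUSG00000024786) spans chr19:6184388-6224225 on the plus strand with 11 exons. *Sun1* (ENSMUSG00000036817) spans chr5:139200637-139249840 on the plus strand and is annotated with 20 transcripts, of which 14 are coding. *Ccdc155* (ENSMUSG00000038292) spans chr7:45183624-45204892 on the minus strand with 20 exons. The antisense gene 4930520M14Rik overlaps exons of *Sun1*. It had 2 to 12 fragments per library beside at least 2918 for *Sun1*, and whether the counting used strand is not given in the sources used here. The small RNA gene Gm22148 lies inside *Terb1* without touching its exons and had 1 to 8 fragments.

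RefSeq start sites on GRCm38.p6 were at hand for 3 of the 5 genes, and the 250 bases before the start are shown for these to set *Terb1* beside the genes of the LINC pair. The *Terb1* window is chr8:104509888-104510137 (minus strand), the window of the first *Sun1* start is chr5:139200387-139200636 (plus strand) and the *Ccdc155* window is chr7:45204893-45205142 (minus strand). Each is written 5′ to 3′ on the strand of the gene, and capitals mark a GC box (GGGCGG) or a CCAAT box (CCAAT) on either strand.
Terb1: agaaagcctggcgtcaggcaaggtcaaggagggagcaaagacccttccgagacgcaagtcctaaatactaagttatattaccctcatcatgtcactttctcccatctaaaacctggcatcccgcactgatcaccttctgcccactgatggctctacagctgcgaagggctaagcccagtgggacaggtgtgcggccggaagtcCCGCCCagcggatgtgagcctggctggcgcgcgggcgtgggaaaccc
Sun1: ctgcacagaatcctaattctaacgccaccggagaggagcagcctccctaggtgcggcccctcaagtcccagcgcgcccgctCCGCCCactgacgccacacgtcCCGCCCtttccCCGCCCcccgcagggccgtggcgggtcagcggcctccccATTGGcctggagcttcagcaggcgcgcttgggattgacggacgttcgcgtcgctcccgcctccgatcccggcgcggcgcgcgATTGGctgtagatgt
Ccdc155: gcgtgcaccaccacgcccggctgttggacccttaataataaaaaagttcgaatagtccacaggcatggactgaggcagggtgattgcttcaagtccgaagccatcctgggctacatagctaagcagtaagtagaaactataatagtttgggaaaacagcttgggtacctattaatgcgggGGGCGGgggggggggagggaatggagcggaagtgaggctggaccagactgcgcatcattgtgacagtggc
The *Sun1* window was 70% G and C with 30 CG pairs, the *Terb1* window 58% with 13, and the *Ccdc155* window 53.2% with 9. The medians of all 32851 RefSeq windows of this length were 52.4% and 6. *Sun1* held 3 GC boxes and 2 CCAAT boxes, while *Terb1* and *Ccdc155* held 1 GC box each. A GC box stood in 32.7% of all windows and a CCAAT box in 33.8%. Both strands were also searched for an E-box (CACGTG, in 6.02% of windows), a STRA8 site (CNCCTCAG, 6.42%), an E2F site (TTCCCGC, 3.82%) and a cyclic AMP response element (TGACGTCA, 1.55%), and none of these letters was found in the 3 windows. No match overlapped another. A second annotated *Sun1* start, preceded by chr5:139214908-139215157, had a window of 43.6% G and C with 1 CCAAT box.

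Values are FPKM, fragments counted over the exons, divided by exon length and by a scaled library size. The libraries held 13978342 to 19583091 fragments on genes. Control replicate 1 stood apart from the others, with 0.464% of its fragments on mitochondrial genes against 2.20% to 3.74% in the other 7 libraries. Log2 differences of the 5 genes between the groups that rest on it are therefore also given without it. *Spdya* itself averaged 21.3 ± 1.76 FPKM in the control and 24.1 ± 5.45 FPKM in the cKO libraries (SD, n = 4), a value over the whole gene that does not isolate the floxed exon. Group values below are given as mean ± SD with n = 4. In whole testes, fewer cells of a type and less RNA per cell cannot be told apart.

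All 5 genes were expressed in every library, and their levels per kilobase formed a steep order. *Ccdc155* was the highest in each of the 8 libraries, followed by *Majin* and then *Sun1*, and *Terb1* and *Terb2* were the lowest. Averaged over all libraries, *Ccdc155* stood above 96.2% of the 12141 genes tested, *Majin* above 88.2%, *Sun1* above 81.9%, *Terb2* above 49.3% and *Terb1* above 44.1%. Within a library *Ccdc155* was 1.58 to 3.00 times *Majin*, *Majin* was 1.15 to 1.64 times *Sun1*, and *Sun1* was 2.28 to 3.93 times *Terb2*. These levels rest on the deposited exon lengths, 7596 bases for *Sun1*, 1641 for *Majin* and 3749 for *Terb1*. Their principal transcripts have 4134, 1562 and 2950 bases. The order of *Majin* and *Sun1* therefore depends on the length used, and other lengths were not tested. Over all 8 libraries the ranges of *Majin* (29.5 to 43.5 FPKM) and *Sun1* (24.1 to 30.1 FPKM) met, while those of *Ccdc155* and *Majin* and those of *Sun1* and *Terb2* did not. The lowest neighbours were not separated, since *Terb2* exceeded *Terb1* in 7 of 8 libraries and lay below it, at 0.686 times, in control replicate 1.

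*Terb1* and *Terb2*, the part that sits on the telomere, were both lower in the cKO libraries, at 0.521 and 0.677 of the control mean. *Majin*, *Sun1* and *Ccdc155* were at 0.917, 0.945 and 0.918 of it, and their groups overlapped. None of the 5 genes reached the study's threshold for differential expression in the limma fit used here. The threshold was an adjusted p below 0.05 with an absolute log2 fold change above 1. It was reached by 2 of the 12141 genes tested (0.0165%). The study applied it to DESeq2 results and called more genes, so these counts are not the study's own. At an unadjusted p below 0.05 there were 2 of the 5 genes, *Terb1* and *Terb2*, both lower in the cKO libraries, where 10.9% of all genes tested were below that value in either direction, 607 of them lower and 715 higher.

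**Figure D1:**
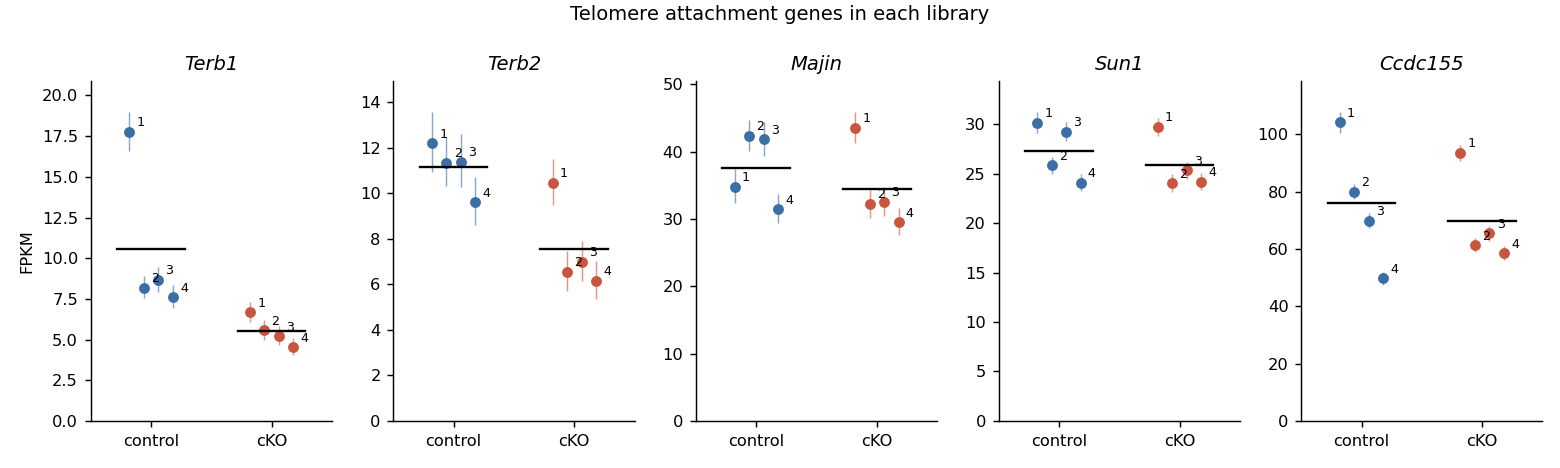
FPKM of each gene in each library, with the replicate number beside each point, a 95% Poisson interval of the fragment count as a thin bar and the group mean as a black line. The 4 cKO values of *Terb1*, 4.54 to 6.67 FPKM, lie below the 4 control values, 7.60 to 17.8 FPKM, and in each of the other 4 genes at least 1 cKO value lies inside the control range.

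*Terb1*, which links the complex to TRF1, had 17.8, 8.19, 8.67 and 7.60 FPKM in control replicates 1 to 4 and 6.67, 5.58, 5.22 and 4.54 FPKM in cKO replicates 1 to 4. All cKO libraries were below all control libraries, which held for 2.59% of all genes tested, and control replicate 1 was far above the rest. The means were 10.6 ± 4.83 and 5.50 ± 0.891 FPKM, and the control mean without replicate 1 was 8.16 ± 0.535 FPKM (n = 3). The exact permutation test of the difference in means gave p = 0.0286, two-sided, the smallest p that 4 against 4 libraries allow. In the limma fit over all genes the log2 fold change was -0.85 (SE 0.25, 95% interval -1.41 to -0.29, unadjusted p = 0.00682, adjusted p = 0.276). Without control replicate 1 it was -0.57 (SE 0.13, adjusted p = 0.0899), so that library set much of the size of the difference and not its sign. The counts behind these values were 289 to 873 fragments. Across the gap between the groups, the counting interval of cKO replicate 1 (6.09 to 7.29 FPKM) overlapped that of control replicate 4 (6.93 to 8.32 FPKM). The difference between these nearest libraries was not tested.

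*Terb2*, the bridge between TERB1 and MAJIN, had 12.2, 11.3, 11.4 and 9.61 FPKM in the control libraries and 10.5, 6.54, 6.98 and 6.15 FPKM in the cKO libraries. The cKO libraries 2, 3 and 4 were below every control library, and cKO replicate 1 lay inside the control range. The means were 11.1 ± 1.09 and 7.54 ± 1.98 FPKM (exact permutation p = 0.0571, two-sided). The log2 fold change was -0.58 (SE 0.17, 95% interval -0.95 to -0.22, unadjusted p = 0.00543, adjusted p = 0.260 by limma), and -0.75 without cKO replicate 1 (adjusted p = 0.142). It was -0.54 without control replicate 1 (limma adjusted p = 0.192) and -0.50 without cKO replicate 4 (limma adjusted p = 0.766). Each value rests on 221 to 435 fragments. The highest counting bound of cKO libraries 2 to 4, 7.90 FPKM, was under the lowest bound of the control libraries, 8.60 FPKM.

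*Majin*, the membrane anchor of the same complex, had 34.8, 42.4, 41.8 and 31.5 FPKM in the control libraries and 43.5, 32.2, 32.6 and 29.5 FPKM in the cKO libraries. The highest value of all was cKO replicate 1 and the lowest was cKO replicate 4, so the groups overlapped throughout. The means were 37.6 ± 5.35 and 34.5 ± 6.19 FPKM (exact permutation p = 0.429, two-sided). The log2 fold change of -0.13 (SE 0.15) had a 95% interval of -0.46 to 0.20, which spans a decrease of 27.3% and an increase of 14.9%, with a limma adjusted p of 0.806.

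*Sun1*, the inner membrane side of the bridge, had 30.1, 25.8, 29.3 and 24.1 FPKM in the control libraries and 29.7, 24.1, 25.3 and 24.2 FPKM in the cKO libraries. Its highest and lowest library differed by 0.33 on the log2 scale, the least of the 5 genes, and the means were 27.3 ± 2.85 and 25.8 ± 2.66 FPKM (exact permutation p = 0.4, two-sided). Its log2 fold change was -0.08 (SE 0.11), and the 95% interval of -0.33 to 0.17 spans a decrease of 20.6% and an increase of 12.6% (adjusted p = 0.844 by limma). *Sun1* had the most fragments, 2918 to 4379 per library, and the narrowest interval.

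*Ccdc155*, whose product KASH5 reaches the dynein motor, had 104, 80.0, 69.9 and 49.8 FPKM in the control libraries and 93.6, 61.4, 65.5 and 58.6 FPKM in the cKO libraries. The control libraries alone covered more than the whole range of the cKO libraries. The means were 76.0 ± 22.6 and 69.8 ± 16.1 FPKM (exact permutation p = 0.686, two-sided), and the log2 fold change was -0.10 (SE 0.23, 95% interval -0.60 to 0.41, adjusted p = 0.909 by limma). Without control replicate 1 the log2 fold change was 0.07, so the sign was set by that library.

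**Figure D2:**
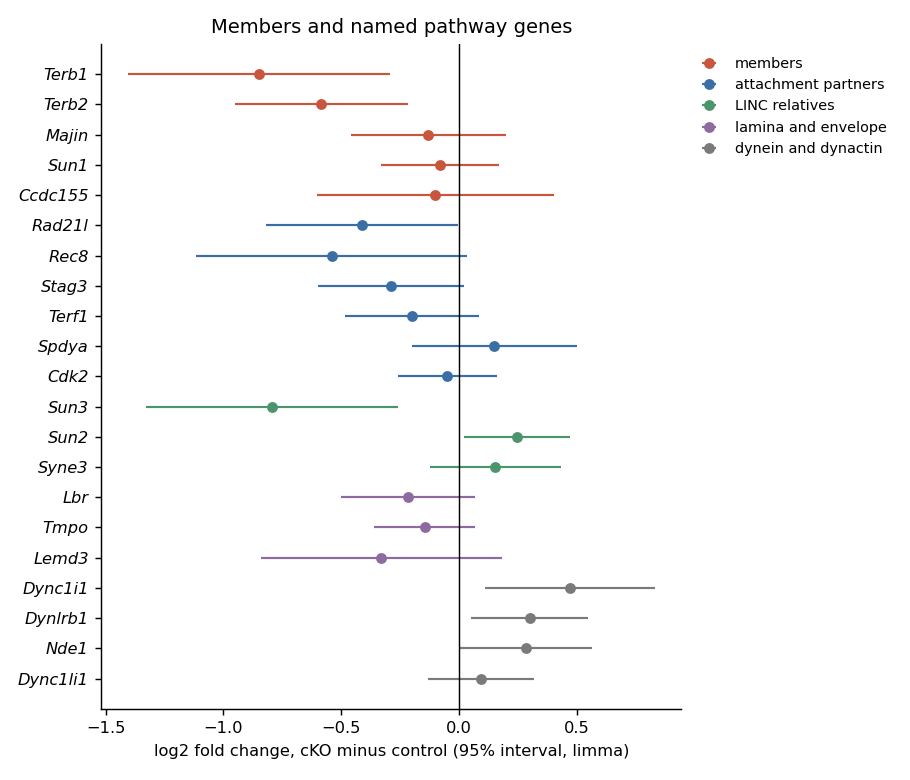
Log2 fold change (cKO minus control) with its 95% interval from limma for the 5 genes and for named genes of the pathway. The intervals of *Terb1* (-1.41 to -0.29) and *Terb2* (-0.95 to -0.22) lie below 0, and those of *Majin*, *Sun1* and *Ccdc155* cross 0.

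The libraries moved the 5 genes together to a degree. Control replicate 4 had the lowest control value of all 5 genes, and cKO replicate 1 had the highest cKO value of all 5. These are also the control and the cKO library with the lowest and the highest summed FPKM of 12 spermatocyte genes, 1323 in control replicate 4 and 1812 in cKO replicate 1, and the part of this in the values was not tested. Over the 8 libraries, which share the groups and the depth, Pearson's r of log2(FPKM + 0.1) was 0.847 between *Sun1* and *Ccdc155* and 0.824 between *Terb1* and *Terb2*. It was 0.732 between *Terb2* and *Majin* and 0.326 between *Terb1* and *Majin*, the lowest of the 10 pairs. In control replicate 1 *Terb1* had its highest value of all libraries, 17.8 FPKM, while *Majin* was inside the control range at 34.8 FPKM. No r was computed without that library, so how far the low value rests on it was not tested.

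Ratios within a library take out what scales all genes of that library alike. *Majin* was 2.85, 3.73, 3.67 and 3.27 times *Terb2* in the control libraries and 4.16, 4.93, 4.66 and 4.80 times *Terb2* in the cKO libraries. It was 1.96, 5.17, 4.82 and 4.14 times *Terb1* in the control libraries and 6.52, 5.78, 6.24 and 6.51 times in the cKO libraries. Both ratios were higher in every cKO library than in any control library. The ratio of *Sun1* to *Terb2* went from 2.28 to 2.57 in the control libraries and from 2.84 to 3.93 in the cKO libraries, and that of *Sun1* to *Terb1* from 1.70 to 3.38 and from 4.31 to 5.33. The ratio of *Ccdc155* to *Terb2* went from 5.18 to 8.55 and from 8.95 to 9.52, and that of *Ccdc155* to *Terb1* from 5.87 to 9.76 and from 11.0 to 14.03. In all 6 ratios of *Majin*, *Sun1* or *Ccdc155* to *Terb1* or *Terb2* the groups did not overlap, although the FPKM of *Terb2* alone did. Among the other 12140 genes tested, 1.66% were lower relative to *Majin* in all cKO libraries than in all control libraries, 2.63% relative to *Sun1* and 0.725% relative to *Ccdc155*. The remaining 4 ratios, among *Majin*, *Sun1* and *Ccdc155* and of *Terb2* to *Terb1*, overlapped between the groups.

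**Figure D3:**
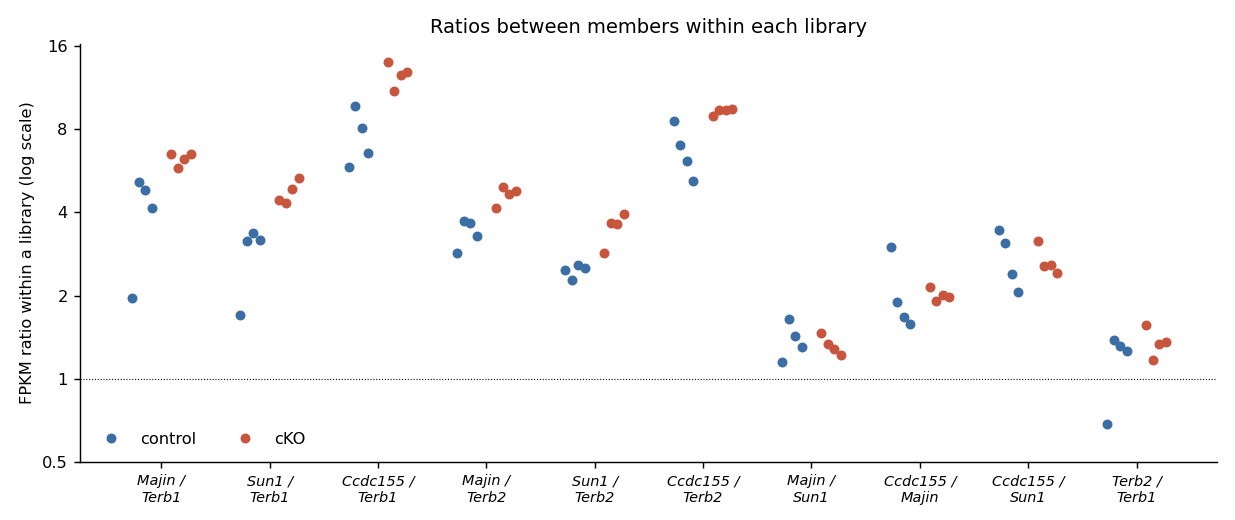
FPKM ratio of the first to the second gene within each library, on a log axis, for the 10 pairs of the 5 genes, with control libraries on the left of each pair and cKO libraries on the right. In the 6 pairs with *Terb1* or *Terb2* below *Majin*, *Sun1* or *Ccdc155* the groups do not overlap, as in *Majin* over *Terb2* (2.85 to 3.73 against 4.16 to 4.93).

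The genes around the 5 were described by 4 lists of 54 genes: attachment partners, LINC relatives, lamina and envelope proteins, and dynein with dynactin. Of these 50 passed the filter on FPKM, none was called, and 6 (12%) were at an unadjusted p below 0.05, near the 10.9% of all genes tested. Of these 6, 2 were lower and 4 higher in the cKO libraries. The median log2 fold change of the 50 was 0.02, beside 0.01 over all genes tested, and the smallest adjusted p was 0.287.

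The attachment partners were the shelterin proteins, the meiotic cohesins of the chromosome axis, SpdyA and CDK2. Of 14 genes, 8 had a log2 fold change below 0, and 1 of them was at an unadjusted p below 0.05. That gene was *Rad21l*, a meiosis-specific kleisin subunit of cohesin, with 2.90, 2.19, 2.51 and 2.39 FPKM in the control libraries and 1.68, 1.66, 1.57 and 2.63 FPKM in the cKO libraries (log2 fold change -0.41, SE 0.18, limma adjusted p = 0.454). *Rec8*, the other meiotic kleisin, averaged 25.3 ± 10.3 and 16.4 ± 1.80 FPKM (log2 fold change -0.54, SE 0.26), but control replicates 2 and 4, at 16.2 and 16.7 FPKM, were inside the cKO range, and the log2 fold change was -0.35 without control replicate 3. *Stag3*, their partner subunit, averaged 85.9 ± 15.0 and 69.7 ± 6.72 FPKM (-0.29, and -0.18 without control replicate 3). *Terf1*, which encodes the TERB1 partner TRF1, averaged 7.61 ± 1.12 and 6.60 ± 0.618 FPKM (log2 fold change -0.20, adjusted p = 0.631, and -0.11 without control replicate 1). *Cdk2* averaged 26.5 ± 1.96 and 25.6 ± 1.47 FPKM (-0.05, adjusted p = 0.889), with overlap of the groups in these last 3 genes.

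Among the LINC relatives, *Sun2*, the other SUN protein at meiotic telomeres, had 23.7, 23.5, 20.96 and 21.2 FPKM in the control libraries and 25.3, 25.5, 25.01 and 30.5 FPKM in the cKO libraries. All cKO libraries were above all control libraries, and how common this was among all genes tested was not counted for the higher direction. The log2 fold change was 0.25 (SE 0.10, unadjusted p = 0.0353, adjusted p = 0.429 by limma). *Sun3*, a SUN protein of spermatids, had 2.41, 4.42, 6.01 and 3.99 FPKM in the control libraries and 2.58, 2.02, 2.05 and 2.45 FPKM in the cKO libraries (-0.79, SE 0.24, unadjusted p = 0.00792, adjusted p = 0.287). Its lowest control value, replicate 1, was inside the cKO range. *Syne3*, a KASH protein of somatic cells, averaged 5.86 ± 0.618 and 6.54 ± 0.804 FPKM. The filter left 5 of the 9 genes of this list, and no LINC relative other than *Sun2* and *Sun3* was at an unadjusted p below 0.05.

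The 8 genes of the lamina and envelope held none at an unadjusted p below 0.05. *Lbr*, the lamin B receptor, averaged 27.3 ± 3.19 and 23.6 ± 3.18 FPKM, *Tmpo*, the gene of LAP2, 12.8 ± 1.08 and 11.6 ± 0.639 FPKM, and *Lemd3*, the gene of MAN1, 24.9 ± 10.4 and 18.7 ± 1.61 FPKM, where control replicate 1 was at 40.0 FPKM and the log2 fold change of -0.33 was -0.07 without it.

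The motor on the outer side was the largest list, with 23 dynein and dynactin genes, of which 14 had a log2 fold change above 0 and 3 were at an unadjusted p below 0.05, all higher in the cKO libraries. *Dync1i1*, an intermediate chain of dynein, averaged 10.9 ± 2.16 and 15.1 ± 2.41 FPKM (log2 fold change 0.47, SE 0.16, adjusted p = 0.341). *Dynlrb1*, a light chain, had 34.1, 46.1, 40.6 and 39.5 FPKM in the control libraries and 47.1, 50.2, 52.1 and 47.3 FPKM in the cKO libraries (0.30, SE 0.11, adjusted p = 0.382). *Nde1*, a dynein regulator, averaged 9.18 ± 1.28 and 11.2 ± 1.04 FPKM (0.28, SE 0.13, adjusted p = 0.457, and 0.18 without control replicate 1). *Dync1li1*, the light intermediate chain that meets dynein adaptors, averaged 11.2 ± 0.901 and 11.9 ± 0.939 FPKM (0.09, SE 0.10, adjusted p = 0.792).

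Marker lists of cell types and stages are given beside these values, and their counts stand against the same 10.9% of all genes. Of 12 spermatocyte genes, such as *Sycp1* and *Hspa2*, 11 had a log2 fold change below 0 and none was at an unadjusted p below 0.05. Their mean log2 level was lower by 0.18 in the cKO libraries, and their summed FPKM was 1323 to 1865 in the control and 1190 to 1812 in the cKO libraries. Among 14 genes of early prophase, such as *Dmc1* and *Spo11*, 1 was higher and 5 were lower at an unadjusted p below 0.05. The higher gene was *Meiob*, which encodes a protein of recombination, at a log2 fold change of 0.69, and 0.50 without cKO replicate 1. The lower genes were *Stra8*, the RA target of meiotic entry, at -1.46, and *Gm4969*, the gene of its partner MEIOSIN, at -1.03. The other lower genes were *Ccdc36* at -0.39, *Prdm9* at -0.34 and *Rec114* at -0.31. Without control replicate 3 *Stra8* was at -1.09 and *Gm4969* at -0.63, and the groups overlapped in *Stra8*. Of the 14 early prophase genes, 11 had a log2 fold change below 0. The mean log2 level of this list was lower by 0.24 in the cKO libraries. The summed FPKM of the early list was 242 to 305 in the control and 218 to 323 in the cKO libraries. Much of that sum was *Hormad1*, which averaged 124 ± 14.5 and 128 ± 26.2 FPKM. Of the somatic lists, 4 of 6 tested macrophage genes were higher at an unadjusted p below 0.05, with summed levels of 14.6 to 26.0 and 28.3 to 35.7 FPKM. The mean log2 level of the macrophage list was higher by 0.61 in the cKO libraries, and by 0.44 without control replicate 1. The counts at an unadjusted p below 0.05, all higher in the cKO libraries, were 1 of 4 peritubular, 2 of 4 endothelial, 2 of 4 Leydig, 0 of 10 Sertoli (2 of the 10 with a log2 fold change below 0) and 2 of 11 spermatogonial genes, while 3 of 10 genes of late pachytene cells were lower and 0 of 2 spermatid genes passed. Peritubular markers summed to 45.6 to 76.6 and 75.4 to 105 FPKM, endothelial markers to 6.93 to 12.5 and 12.2 to 15.7 FPKM, Leydig markers to 19.8 to 43.6 and 31.2 to 48.6 FPKM, with *Hsd17b3* of that list at a log2 fold change of -0.71, and Sertoli markers to 1524 to 2558 and 1992 to 2339 FPKM. All 10 tested genes of the late pachytene list had a log2 fold change below 0. The mean log2 level of that list was lower by 0.21 in the cKO libraries. Markers of late pachytene cells summed to 1229 to 1856 and 1015 to 1526 FPKM, those of spermatogonia to 232 to 314 and 299 to 310 FPKM, and those of spermatids to 5.76 to 13.5 and 6.98 to 9.20 FPKM. In none of these lists was a marker at 0 in all libraries.

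**Figure D4:**
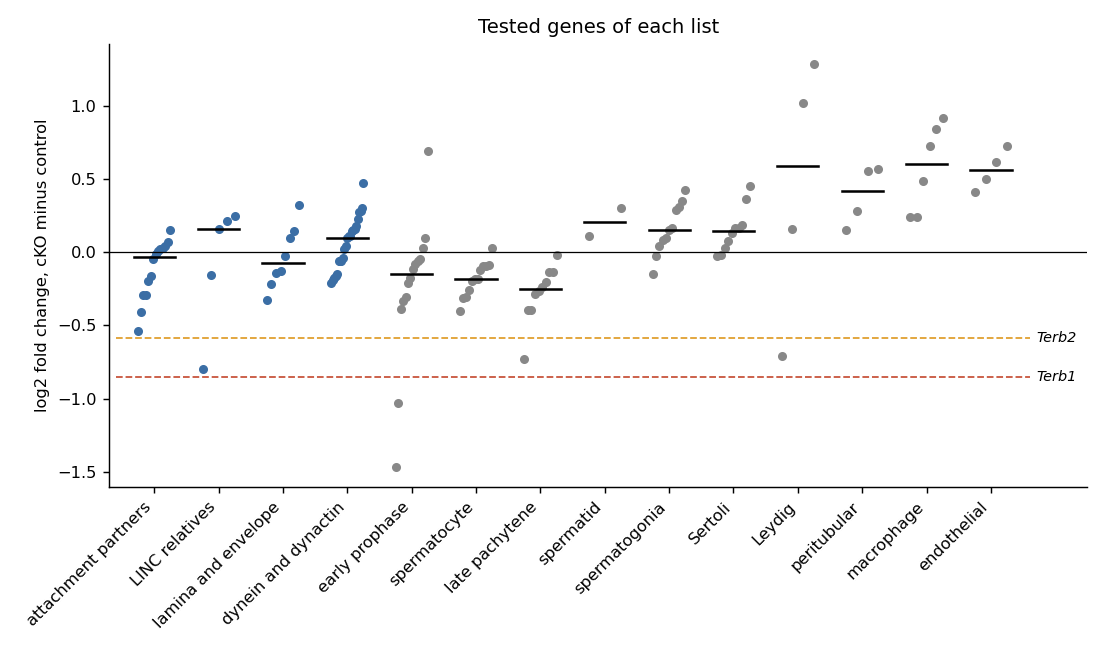
Log2 fold change (cKO minus control) of the tested genes of the 4 pathway lists (blue) and of the marker lists of stages and cell types (grey), with the median of each list as a black line and *Terb1* and *Terb2* as dashed lines at -0.85 and -0.58. The 12 spermatocyte genes lie at a median of -0.18, above both dashed lines.

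Set against the spermatocyte list within each library, *Terb1* was lower in all 4 cKO libraries than in all 4 control libraries. This held for 1.30% of the genes tested outside the list. The difference was -0.67 on the log2 scale, and -0.42 without control replicate 1. *Terb2* was lower by 0.40 against this list, also without overlap, and the difference was -0.39 without control replicate 1. *Majin*, *Sun1* and *Ccdc155* differed by 0.05, 0.10 and 0.08 against the same list, with overlap of the groups, and by -0.02, 0.12 and 0.22 without control replicate 1, so the sign of *Majin* depended on that library. Against the early prophase list the difference was -0.61 for *Terb1*, with all 4 cKO libraries below the controls, as for 0.800% of the genes tested outside this list, and -0.34 for *Terb2*, with 3 of 4. Without control replicate 1 the *Terb1* difference against the early list was -0.31. Whether a shift in cell types or stages had a part in the lower *Terb1* and *Terb2* values was not tested. The differences against the lists describe the values and do not correct for such a shift.

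The genes whose log2 levels followed each of the 5 most closely over the 8 libraries are given as a description. For *Terb1* they were *Grk4* (r = 0.987), *Efcab11* (0.979) and *Dnajb6* (0.979), and 257 of the other 12140 genes tested had r above 0.9. For *Terb2* they included *Drc3* (0.979) and *Cfap36* (0.979), with 175 genes above 0.9. *Majin* was followed most closely by *Tcam1*, *Nprl3* and *Agbl5* (0.988, 0.982 and 0.980), and *Sun1* by *Lancl2*, *Pbp2* and *Bcap29* (0.990, 0.990 and 0.984). *Ccdc155* was followed by *Daxx*, *Irf3* and *Gtf2h4* (0.999, 0.992 and 0.989) and had the most genes above 0.9, 465.

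**Figure D5:**
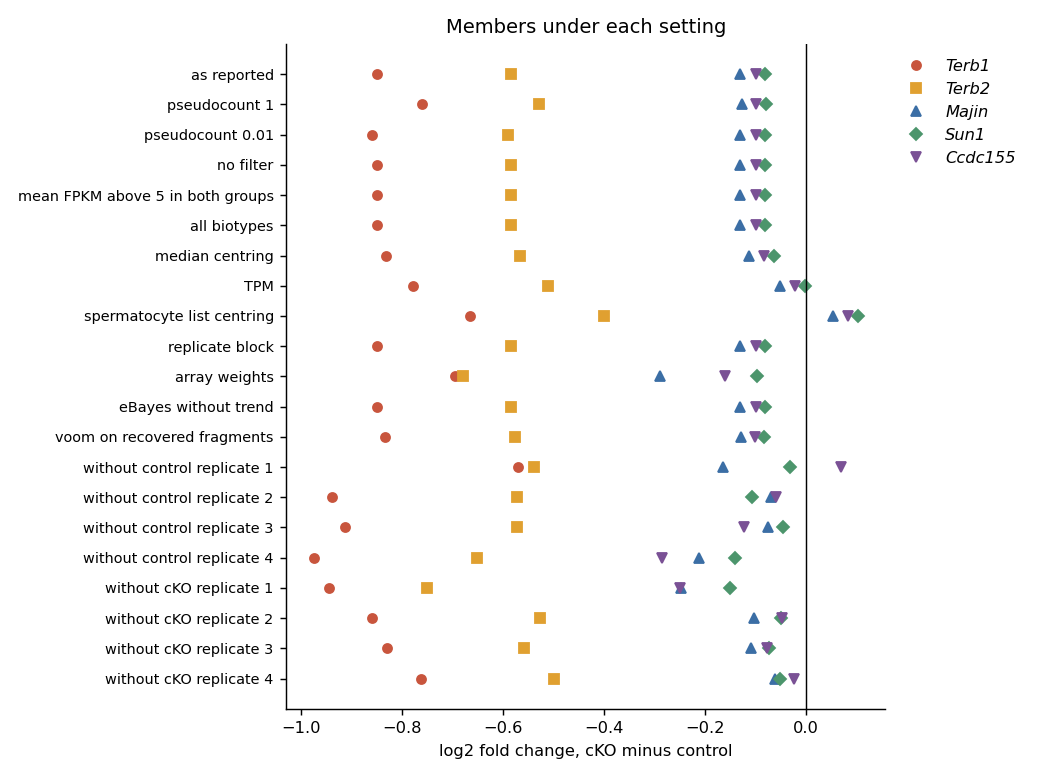
Log2 fold change (cKO minus control) of the 5 genes as reported and under 12 other settings and 8 fits that leave out 1 library each. *Terb1* stays between -0.98 and -0.57 and *Terb2* between -0.75 and -0.40, while *Majin*, *Sun1* and *Ccdc155* lie between -0.29 and 0.10.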

How the data were processed

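RNA was measured in whole testes of 4 control and 4 cKO mice, 1 library each, and samples were grouped by the genotype in the labels. The authors deposited FPKM values from a sequencing company for 54532 genes, with a gene length. The submitters' processing notes name GRCm38, and the aligner, counter and use of strand are not given in the sources used here. FPKM multiplied by length gave whole fragments for 100% of values above 0 (tolerance 0.02), and the FPKM already carry a scaling per library of 0.938 to 1.05 times the fragment total. Deposited FPKM were tested as log2(FPKM + 0.1) with limma 3.58.1 in R 4.3.3 (eBayes with trend), over 12141 protein-coding genes with a mean above 1 FPKM in both groups, the filter of the study, with Benjamini-Hochberg adjustment over all of them. The pseudocount of 0.1 understates changes of genes with low FPKM. The labels name a column kit for RNA and tamoxifen on RA7.5 and RA8.5, where the methods name another reagent and slightly earlier days.

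Exact permutation tests used all 70 assignments of the libraries. Poisson intervals cover counting error only. Named genes were the 5 genes, *Spdya*, *Cdk2*, *Terf1*, *Sun2* and *Dync1li1*, the 3 genes with the smallest p in each pathway list, the 3 genes most correlated with each of the 5, and genes that overlap them, and others were chosen after their values were seen. A gene that this rule names is not reported here. The genes and lists were chosen with earlier results of these data known. Alternatives were other pseudocounts, filters and scalings, eBayes without trend, array weights, the replicate number as a block, each library left out, and voom run on fragments (2 genes called). Promoters are from RefSeq (GRCm38.p6), read from 250 bases before the start site. Figures were drawn with matplotlib 3.10.9.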

Additional observations from a re-analysis of the deposited data

Results flagged for a closer look

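*Terb1* in control replicate 1 was at 17.8 FPKM (95% Poisson interval 16.6 to 19.0), while the other 3 control libraries lay between 7.60 and 8.67 FPKM. The gap took 0.895 of the range of the group, above Dixon's critical value for 4 libraries. It was 1 of 10 groups of 4 examined, where chance gives 0.5. The other 4 genes gave no such gap in either group. In the same library *Terb2* was at 12.2 FPKM, *Sun1* at 30.1 FPKM and *Ccdc155* at 104 FPKM, each the highest control value, and *Majin* was at 34.8 FPKM, inside the control range. This library also had the lowest share of mitochondrial fragments, 0.464%, and the lowest weight in the array weights of limma, 0.161. Without it *Terb1* had a log2 fold change of -0.57 in place of -0.85. The part of the library in the *Terb1* value was not tested.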

How the results depend on the processing

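*Terb1* and *Terb2* kept a log2 fold change below 0 and an unadjusted p below 0.05 in all 12 settings and 8 fits without 1 library. Their adjusted p was below 0.05 only with array weights, at -0.69 for *Terb1* (adjusted p = 0.0282) and -0.68 for *Terb2* (adjusted p = 0.0252). At that setting 454 of all 12141 genes tested had an adjusted p below 0.05, against 2 in the fit as reported. Over the other alternatives the adjusted p of both genes was above the threshold and reached 0.774 for *Terb1*. Centring on the spermatocyte list, which moves the median of all genes to 0.19, turned *Majin* to 0.0543, *Sun1* to 0.10 and *Ccdc155* to 0.0848. With 1 library left out the log2 fold change went from -0.98 to -0.57 for *Terb1*, from -0.75 to -0.50 for *Terb2*, from -0.25 to -0.06 for *Majin*, from -0.15 to -0.03 for *Sun1* and from -0.29 to 0.0690 for *Ccdc155*, which was above 0 only without control replicate 1. None of the 5 genes was called in any setting. The count at an unadjusted p below 0.05 was 2 throughout, except for 3 with array weights, where *Majin* joined at -0.29. With array weights 20.9% of all genes tested were below that value, against 10.9% in the fit as reported. Of the pathway genes, 1 was called with array weights, *Sun3* at -1.08 (adjusted p = 0.0144). The count of pathway genes at an unadjusted p below 0.05 went from 3 to 11 with 1 library left out. It was 11 of 50 without control replicate 4 and 3 of 50 without cKO replicate 2, 3 or 4. The share of all genes tested moved in the same direction. That share was 15.3% without control replicate 4, and 7.58%, 6.61% and 5.66% without cKO replicates 2, 3 and 4. Over all genes, array weights called 57 (13 higher and 44 lower) in place of 2, and the fits without 1 library called from 0 to 3. Median centring and TPM called 1 gene each and all biotypes 4. No gene was called by limma without a filter, above 5 FPKM, with spermatocyte centring or with the replicate block, where 10.004%, 8.93%, 10.9% and 14.6% of genes were at an unadjusted p below 0.05. Spermatocyte centring moved the split at an unadjusted p below 0.05 from 715 higher and 607 lower to 1128 and 192, while TPM moved it to 907 and 360. Same-numbered libraries deviated together with r of 0.288, 0.131, 0.0758 and 0.406, and a number was not read as a pair of mice. With the replicate block the log2 fold changes were -0.85 for *Terb1* (adjusted p = 0.121) and -0.58 for *Terb2* (adjusted p = 0.127), and no call of the 5 genes changed. With 4 mice per group, differences of the size seen in *Majin*, *Sun1* and *Ccdc155* could not be separated from 0, and *Terb1* and *Terb2* rest on at most 873 and 435 fragments per library.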
